A study of Mus musculus with 6 samples.

Results

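The genes followed here are 10 genes of the osteoclast, the cell that resorbs bone, read in RNA from mouse cochleae. They were chosen by symbol as 3 genes of matrix degradation (*Ctsk*, *Acp5* and *Mmp9*), 3 of cell fusion and the fused cell (*Dcstamp*, *Ocstamp* and *Atp6v0d2*), the receptor RANK (*Tnfrsf11a*) with the transcription factor *Nfatc1*, and RANK ligand (*Tnfsf11*) with its soluble decoy receptor osteoprotegerin (*Tnfrsf11b*). They are 10 of 51802 gene symbols listed, and all 10 were among the 17136 genes with enough reads to be tested.

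Osteoclasts form when myeloid precursors fuse into large cells with many nuclei. RANK ligand, made by bone-lining cells, osteocytes and activated lymphocytes, binds RANK on the precursors and induces *Nfatc1*, which turns on the genes for fusion and for digestion of bone. Osteoprotegerin binds the same ligand and keeps it from RANK. The inner ear makes a large amount of osteoprotegerin, and the bony otic capsule around it is known for very little remodelling.

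The study asked what differs in the transcriptome of cochleae that carry a *Pou4f3* allele modelled on a human deafness mutation, DFNA15. POU4F3 is a transcription factor of hair cells. RNA was sequenced from 3 wildtype samples (replicates 3, 4 and 5) and 3 *Pou4f3(Δ/+)* samples (replicates 1, 2 and 3), all from cochleae of mice aged 2 months on a C57/BL6J background, with no treatment named in the labels. The mutant mice were heterozygous for a knock-in allele with a short deletion and a base change that create an early stop, present in every cell of the body and not driven by a Cre. The labels do not say whether each sample is 1 animal, so the spread between samples, and the p-values that rest on it, may be partly technical.

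Each library held between 14295069 and 17696784 estimated counts. On the first principal component, which carried 32.53% of the variance, *Pou4f3(Δ/+)* replicates 1 and 2 stood at 23.17 and 40.19, while the third mutant and all 3 wildtype libraries lay between −21.49 and −11.69, so the members' fold changes and counts were also read without the mutant libraries that stood apart. The single listed *Pou4f3* transcript was at 68, 72 and 88 counts in wildtype and 66, 97 and 52 in mutant libraries, and because it takes reads from both alleles it does not check the genotype labels. Hair cell markers were present in every library, with a summed level of 48.41 to 48.48 FPKM in wildtype and 42.63 to 51.0 in mutant samples (8 of 8 genes tested, 4 higher and 4 lower in mutants). FPKM is a fragment count scaled by transcript length and by library size, so levels in FPKM can be compared between genes. Marrow and blood genes were abundant as well, with 12 neutrophil genes summing to 15190 to 17900 FPKM in wildtype and 15660 to 19050 in mutant samples (5 genes higher and 7 lower, 1 of these at an unadjusted edgeR p under 0.05, and none at that p with mutant replicate 3 alone). The tissue was taken whole, and the files do not tell osteoclasts of the otic capsule from other osteoclasts in the dissected bone.

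Defining genes of osteoclasts were detected in all 6 libraries. *Ctsk*, *Acp5* and *Mmp9* stood above 99.19%, 99.08% and 98.77% of all tested genes by mean FPKM. Osteoprotegerin stood above 92.43% of genes, while its ligand *Tnfsf11* stood above only 17.17%. Lower members were *Atp6v0d2* (above 81.66% of genes), *Nfatc1* (72.15%), *Tnfrsf11a* (33.19%), *Dcstamp* (26.88%) and *Ocstamp* (15.99%). Another osteoclast marker, the calcitonin receptor *Calcr*, named here after its values were seen, was low at 8 to 61 counts a library.

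In order of mean FPKM over the 6 libraries the members were *Ctsk* (332.8), *Acp5* (289.0), *Mmp9* (236.3), *Tnfrsf11b* (58.04), *Atp6v0d2* (28.76), *Nfatc1* (19.65), *Tnfrsf11a* (4.153), *Dcstamp* (2.822), *Tnfsf11* (1.348) and *Ocstamp* (1.222). The ranges of the first 3 overlapped, although *Ctsk* exceeded *Acp5* in 6 of 6 libraries and *Acp5* exceeded *Mmp9* in 5. Osteoprotegerin overlapped neither neighbour, lying below *Mmp9* and above *Atp6v0d2* in every library. *Atp6v0d2* and *Nfatc1* overlapped in range, as did each pair of neighbours among the lowest 4, where *Tnfsf11* and *Ocstamp* changed places in 3 of the 6 libraries.

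**Figure D1:**
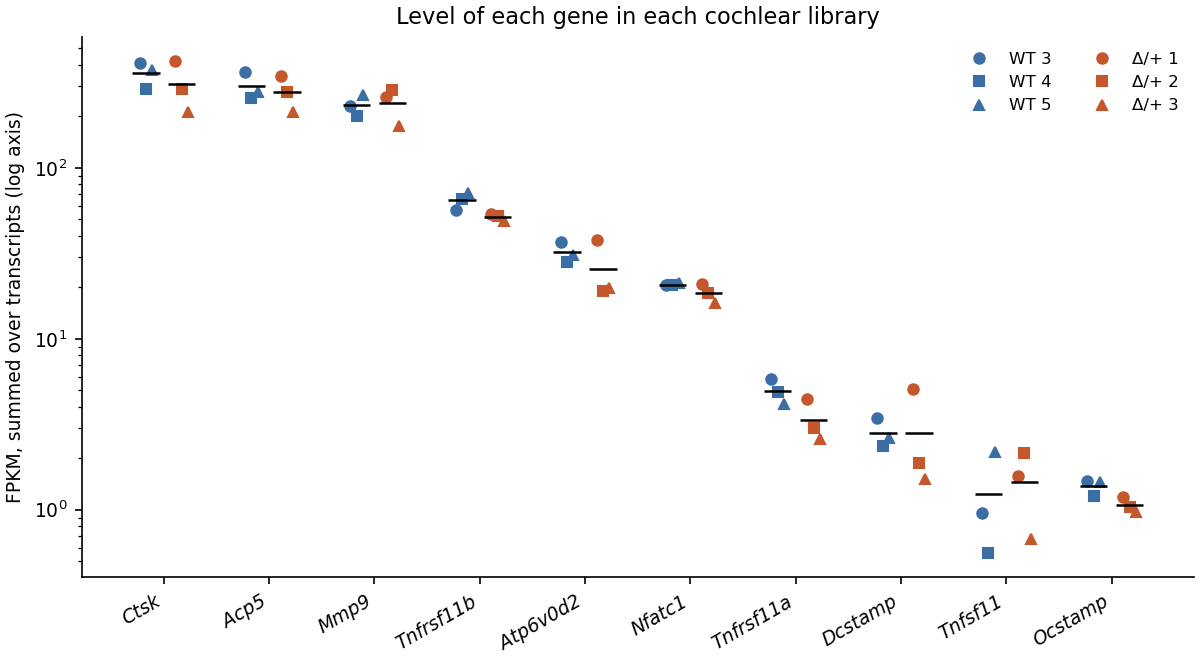
FPKM of the 10 members in each library on a log axis, wildtype in blue and Pou4f3(Δ/+) in orange, with a black bar at each group's mean. The levels run from 0.56 for Tnfsf11 to 420.26 for Ctsk, and the colours are separate only for Ocstamp and Tnfrsf11b.

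The start regions of *Ctsk*, *Acp5* and *Tnfrsf11a* are shown because the levels of their transcripts are described next. They come from RefSeq (GRCm38.p6), cover 250 bases before and 50 after an annotated start, and read 5′ to 3′ on the gene's own strand. Capitals mark matches, on either strand, to the NFAT core GGAAA, the E-box CATGTG to which MITF binds, or the PU.1 sequence GAGGAAG. NFAT and PU.1 letters share GGAA, and any overlapping matches run together. The windows are *Ctsk* at chr3:95498960-95499259 on the plus strand, *Acp5* proximal at chr9:22130549-22130848, *Acp5* middle at chr9:22131816-22132115 and *Acp5* distal at chr9:22135697-22135996 on the minus strand, and *Tnfrsf11a* at chr1:105780473-105780772 on the plus strand.
Ctsk: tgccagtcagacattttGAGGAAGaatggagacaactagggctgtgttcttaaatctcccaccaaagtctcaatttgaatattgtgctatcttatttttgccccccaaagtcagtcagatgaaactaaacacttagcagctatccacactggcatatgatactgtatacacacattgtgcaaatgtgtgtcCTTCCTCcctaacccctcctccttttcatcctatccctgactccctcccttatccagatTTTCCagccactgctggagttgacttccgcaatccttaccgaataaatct
Acp5 proximal: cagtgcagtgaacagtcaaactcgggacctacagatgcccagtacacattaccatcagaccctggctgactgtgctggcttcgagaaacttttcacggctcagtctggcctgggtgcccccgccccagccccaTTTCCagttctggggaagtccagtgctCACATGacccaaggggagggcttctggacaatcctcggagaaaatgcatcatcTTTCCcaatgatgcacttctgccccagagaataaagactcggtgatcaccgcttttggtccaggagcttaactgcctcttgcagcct
Acp5 middle: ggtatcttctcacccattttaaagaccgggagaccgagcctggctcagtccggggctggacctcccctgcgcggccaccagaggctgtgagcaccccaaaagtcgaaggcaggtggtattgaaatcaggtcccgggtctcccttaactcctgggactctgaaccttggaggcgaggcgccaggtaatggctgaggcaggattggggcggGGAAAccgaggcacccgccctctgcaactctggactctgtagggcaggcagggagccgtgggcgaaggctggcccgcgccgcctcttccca
Acp5 distal: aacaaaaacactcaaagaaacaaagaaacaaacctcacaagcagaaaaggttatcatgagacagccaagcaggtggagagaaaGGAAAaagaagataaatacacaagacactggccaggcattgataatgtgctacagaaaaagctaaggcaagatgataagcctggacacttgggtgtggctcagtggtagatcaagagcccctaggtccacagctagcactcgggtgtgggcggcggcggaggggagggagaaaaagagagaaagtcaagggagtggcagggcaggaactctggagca
Tnfrsf11a: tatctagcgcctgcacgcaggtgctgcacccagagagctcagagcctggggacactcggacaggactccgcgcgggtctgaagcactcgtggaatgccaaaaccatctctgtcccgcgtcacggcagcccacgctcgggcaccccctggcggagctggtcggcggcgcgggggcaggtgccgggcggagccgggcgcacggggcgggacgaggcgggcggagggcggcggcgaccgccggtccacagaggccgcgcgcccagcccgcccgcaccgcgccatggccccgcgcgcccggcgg

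The *Ctsk* window held 1 NFAT core and 2 PU.1 matches, the proximal *Acp5* window 2 NFAT cores and 1 MITF E-box, the middle and distal *Acp5* windows 1 NFAT core each, and the *Tnfrsf11a* window none of these letters. As a measure of how common such matches are, 61.3% of 32851 RefSeq start windows held an NFAT core, 14.2% the E-box and 13.6% the PU.1 sequence. Windows were present for 4 of the 10 members, those of *Ctsk*, *Acp5*, *Tnfrsf11a* and *Tnfsf11*.

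Comparing genotypes, none of the 10 members passed an adjusted p of 0.05 in edgeR's quasi-likelihood test, in which 0 of 17136 genes passed (0.0%) and the smallest adjusted p of a member was 0.643. At an unadjusted p under 0.05 in the same test, 2 members were lower in *Pou4f3(Δ/+)*, *Tnfrsf11a* and *Tnfrsf11b*, and none was higher, against 4.14% of all genes lower and 3.5% higher. In DESeq2 64 genes passed the adjusted threshold (0.374%), none of them a member, and the smallest DESeq2 adjusted p of a member was 0.308. By sign, 7 of 10 members were lower, against 50.6% of all genes tested. The members' median log2 fold change was −0.19 beside −0.0027 over all genes tested. In bulk tissue, fewer osteoclasts and less RNA per osteoclast cannot be told apart.

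**Figure D2:**
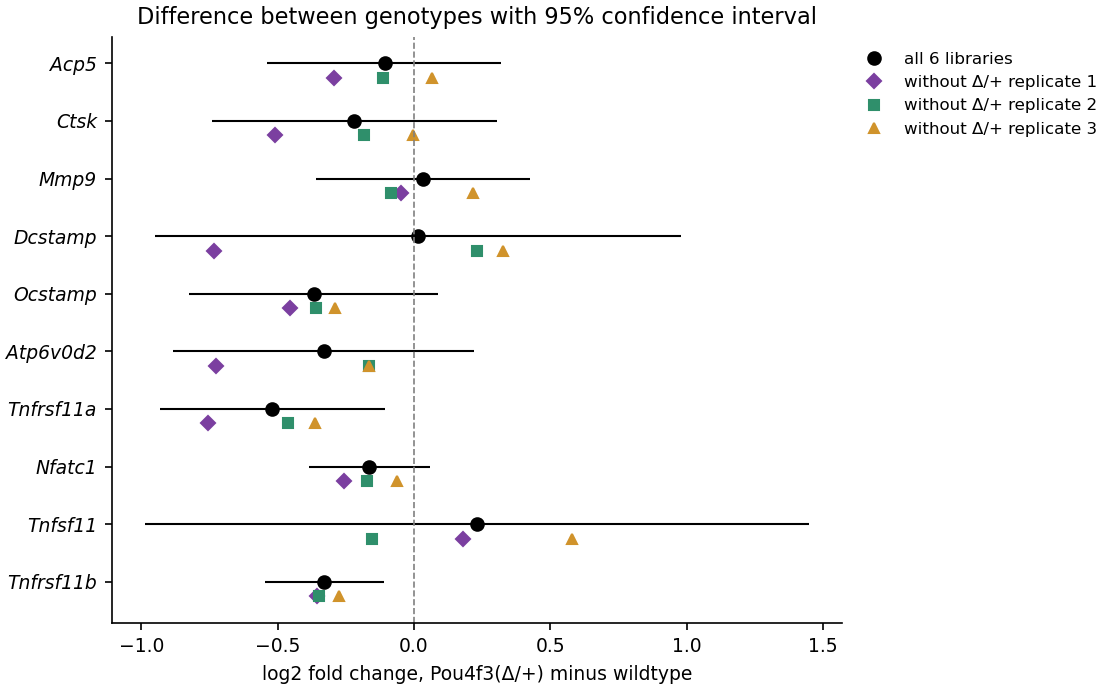
Log2 fold change, Pou4f3(Δ/+) against wildtype, of each member from edgeR with its 95% confidence interval. The intervals of Tnfrsf11a and Tnfrsf11b lie below 0 and the other 8 cross 0.

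Cathepsin K, encoded by *Ctsk* (GRCm38 chr3:95499256-95509362, plus strand), is the protease that cuts bone collagen. It was at 409.25, 291.38 and 373.12 FPKM in the wildtype libraries and at 420.26, 288.79 and 213.73 in *Pou4f3(Δ/+)*, or 357.9 ± 60.39 and 307.6 ± 104.5 (mean ± SD, n = 3 each). The highest and the lowest library were both mutant, so the groups overlapped. In edgeR the log2 fold change was −0.22 (SE 0.230, 95% CI −0.742 to 0.303, edgeR adjusted p = 0.812). It was −0.51 without mutant replicate 1 and −0.0017 without replicate 3, and −0.11 and −0.35 without wildtype replicates 3 and 4.

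*Acp5* (chr9:22126727-22135711, minus strand) encodes tartrate-resistant acid phosphatase, the enzyme stained to show osteoclasts. Its levels were 363.70, 256.81 and 278.67 FPKM in wildtype and 345.51, 276.36 and 212.75 in mutant libraries. The third mutant library was the lowest and a wildtype library the highest, with the others interleaved. This gave a log2 fold change of −0.11 (SE 0.189, 95% CI −0.537 to 0.321, edgeR adjusted p = 0.898). It was −0.29 without mutant replicate 1, and it turned to 0.07 without mutant replicate 3 and to 0.06 without wildtype replicate 3.

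*Mmp9* (chr2:164940780-164955850, plus strand) encodes gelatinase B, which osteoclasts share with neutrophils. It was at 229.48, 201.03 and 266.63 FPKM in wildtype and at 259.31, 285.47 and 175.81 in mutant libraries, again with a mutant library at each end. The fitted log2 fold change was 0.03 (SE 0.173, 95% CI −0.36 to 0.424, edgeR adjusted p = 0.968). It was −0.05 without mutant replicate 1, −0.09 without replicate 2, 0.22 without replicate 3 and −0.06 without wildtype replicate 4. The neutrophil list summed to 17900, 15190 and 17590 FPKM in wildtype and 15660, 19050 and 18200 in mutant libraries. Its genes differed in pattern, as examples chosen after their values were seen show. *Mmp8* was at 335.48 FPKM in mutant replicate 2 and 153.59 in mutant replicate 3, while *S100a9* was at 6371.9 and 6332.9. The part of neutrophils in the *Mmp9* level was not tested.

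The fusion genes were lower in level than the matrix genes. *Dcstamp* (chr15:39745930-39760938, plus strand), which encodes the membrane protein DC-STAMP needed for precursors to fuse, was at 3.46, 2.35 and 2.63 FPKM in wildtype and 5.10, 1.88 and 1.51 in mutant libraries. These values rest on 119, 67 and 90 counts in wildtype and 180, 58 and 44 in mutant libraries. Mutant replicate 1 was above every wildtype library and the other 2 mutant libraries were below them all. With these values the log2 fold change was 0.01 (SE 0.425, 95% CI −0.95 to 0.978, edgeR adjusted p = 0.993). It was −0.73 without mutant replicate 1, 0.23 without replicate 2 and 0.33 without replicate 3, and −0.10 and −0.03 without wildtype replicates 4 and 5.

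*Ocstamp* (chr2:165393760-165400405, minus strand), the partner of *Dcstamp* in fusion, was at 1.47, 1.21 and 1.45 FPKM in wildtype and 1.19, 1.04 and 0.97 in mutant libraries, with 52 to 93 counts each. All 3 mutant libraries lay below all 3 wildtype libraries, although the closest pair, at 1.19 and 1.21, was nearly level. The log2 fold change was −0.37 (SE 0.201, 95% CI −0.825 to 0.089, edgeR adjusted p = 0.664).

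*Atp6v0d2* (chr4:19876841-19922605, minus strand) encodes a proton pump subunit that osteoclasts use in fusion and acid secretion. It was at 36.80, 28.32 and 31.01 FPKM in wildtype and at 37.63, 18.96 and 19.85 in mutant libraries. Mutant replicate 1 was the highest of the 6 libraries, and the other 2 mutant libraries were the lowest. The log2 fold change was −0.33 (SE 0.243, 95% CI −0.883 to 0.222, edgeR adjusted p = 0.742). Without mutant replicate 1 it was −0.73 (SE 0.128, edgeR adjusted p = 0.938), and it was −0.16 without replicate 2, −0.17 without replicate 3 and −0.22 without wildtype replicate 3.

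The receptor and its transcription factor came next. *Tnfrsf11a* (chr1:105780718-105847981, plus strand), the gene of RANK, was at 23.56, 20.76 and 20.23 CPM (counts scaled to library size) in wildtype and 19.46, 13.76 and 11.71 in mutant libraries, from 174 to 404 counts each. No mutant library reached a wildtype library on this scale, although mutant replicate 1 came close to the lowest one. Its log2 fold change was −0.52 (SE 0.182, 95% CI −0.932 to −0.107), a fold of 0.698, with an unadjusted p of 0.0193 and an adjusted p of 0.643 in edgeR. The unadjusted edgeR p was above 0.05 without mutant replicate 2 (−0.46), mutant replicate 3 (−0.36) or wildtype replicate 3 (−0.45).

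In FPKM the *Tnfrsf11a* groups overlapped, at 5.78, 4.91 and 4.14 in wildtype and 4.46, 3.02 and 2.61 in mutant libraries. Part of the summed FPKM came from a short transcript with a retained intron, at 1.30, 0.95 and 0.18 FPKM in wildtype and 0.75, 0.28 and 0.31 in mutant libraries, which carried at most 23.32 estimated counts in any library. The main coding transcript was at 4.37, 3.96 and 3.96 FPKM in wildtype and 3.71, 2.62 and 2.3 in mutant libraries, without overlap.

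*Nfatc1* (chr18:80606205-80713071, minus strand) encodes the master transcription factor of osteoclasts, which other cells also express. Its levels were 20.53, 20.65 and 21.13 FPKM in wildtype and 20.84, 18.61 and 16.12 in mutant libraries. The wildtype libraries lay close to each other, mutant replicate 1 lay among them, and the other 2 mutant libraries lay below. The fitted difference was a log2 fold change of −0.16 (SE 0.098, 95% CI −0.386 to 0.059, edgeR adjusted p = 0.683), and it was −0.26 without mutant replicate 1 and −0.06 without replicate 3.

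RANK ligand, encoded by *Tnfsf11* (chr14:78277445-78308043, minus strand), was low and scattered. It was at 0.96, 0.56 and 2.19 FPKM in wildtype and 1.57, 2.14 and 0.67 in mutant libraries, from 37, 18 and 84 counts and from 62, 74 and 22 counts. The wildtype range enclosed all the mutant values. The log2 fold change was 0.23 (SE 0.537, 95% CI −0.987 to 1.449, edgeR adjusted p = 0.926). It was −0.15 without mutant replicate 2, −0.10 without wildtype replicate 4 and 0.93 without wildtype replicate 5. With these libraries a difference anywhere within that interval could not be told from none.

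Osteoprotegerin, encoded by *Tnfrsf11b* (chr15:54250619-54278484, minus strand), was the member with the smallest p. It was at 56.66, 66.03 and 71.12 FPKM in wildtype and 53.42, 52.21 and 48.78 in *Pou4f3(Δ/+)*, or 64.6 ± 7.335 and 51.47 ± 2.407 (mean ± SD, n = 3 each), from 2016 to 3442 counts. Every mutant library was below every wildtype library, in FPKM and in CPM. The resulting log2 fold change was −0.33 (SE 0.0957, 95% CI −0.546 to −0.111), a fold of 0.796, with an unadjusted p of 0.00776 and an adjusted p of 0.643 in edgeR. Leaving out mutant replicates 1, 2 and 3 in turn gave −0.36, −0.35 and −0.28, and leaving out wildtype replicates 3, 4 and 5 gave −0.41, −0.31 and −0.25, each with an unadjusted edgeR p under 0.05.

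In CPM, 3 of the 10 members (*Ocstamp*, *Tnfrsf11a* and *Tnfrsf11b*) had every mutant library below every wildtype library, against 6.59% of all genes tested.

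RANK ligand and osteoprotegerin can be set against each other within a library, where sequencing depth cancels. Osteoprotegerin FPKM exceeded that of RANK ligand 59.02, 117.9 and 32.47 times in the wildtype libraries and 34.03, 24.4 and 72.81 times in the mutant libraries. The decoy receptor was therefore the more abundant transcript in all 6, with groups that overlapped. The log2 ratio of ligand to decoy was −5.93 ± 0.931 in wildtype and −5.29 ± 0.809 in mutant libraries (mean ± SD, n = 3 each), a difference of 0.63. That difference was −0.26 without mutant replicates 1 and 2. It was 0.16 and 1.09 without wildtype replicates 4 and 5, and 0.29 and 1.08 without mutant replicates 2 and 3. The ratio moved mainly with the ligand, which varied from 0.56 to 2.19 FPKM while the decoy varied from 48.78 to 71.12.

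**Figure D3:**
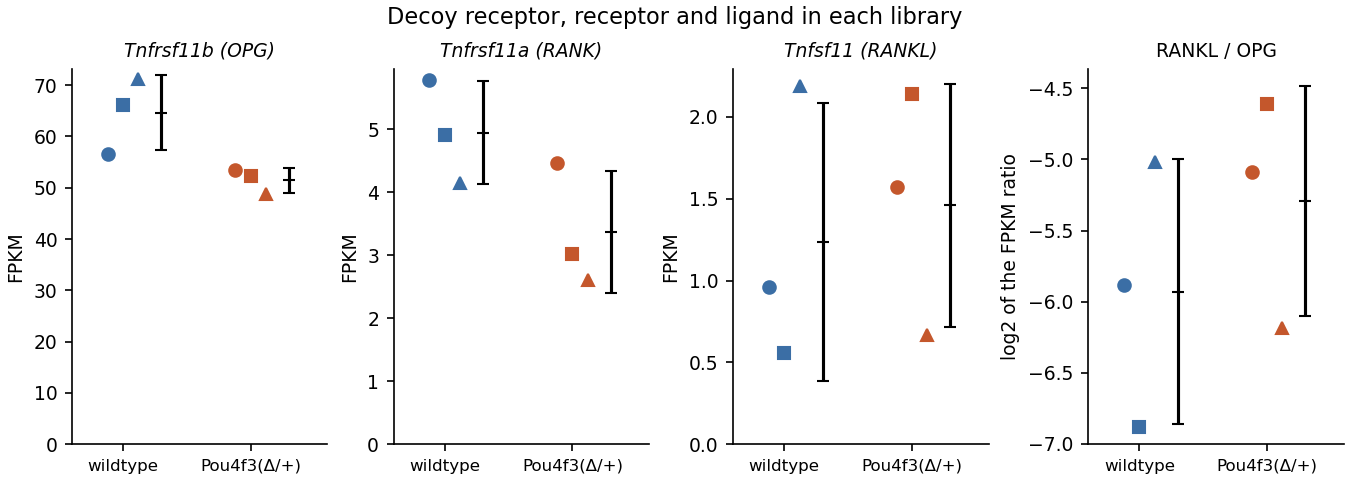
FPKM of osteoprotegerin (Tnfrsf11b, OPG), RANK (Tnfrsf11a) and RANK ligand (Tnfsf11, RANKL), each on its own axis, and the log2 ratio of ligand to osteoprotegerin in each library, wildtype in blue and Pou4f3(Δ/+) in orange, with mean ± SD as black bars and circle, square and triangle for the replicates in order. Only the osteoprotegerin groups are separate in this plot, at 48.78 to 53.42 against 56.66 to 71.12, and the ratio overlaps.

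The 3 mutant libraries were not alike in these genes. Replicate 1 had the highest *Ctsk*, *Dcstamp* and *Atp6v0d2* of all 6 libraries, and replicate 3 had the lowest *Acp5*, *Ctsk*, *Mmp9*, *Dcstamp*, *Ocstamp*, *Tnfrsf11a*, *Nfatc1* and *Tnfrsf11b*. The summed FPKM of *Ctsk*, *Acp5* and *Mmp9* was 1025, 850.6 and 602.3 in mutant replicates 1, 2 and 3, and between 749.2 and 1002 in wildtype.

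The count of lower members turned on which libraries entered, wildtype as well as mutant. Without wildtype replicate 4 every member was lower. Without wildtype replicate 3, *Acp5* (0.06), *Mmp9* (0.03), *Dcstamp* (0.19) and *Tnfsf11* (0.07) were above 0. *Mmp9* (0.135) and *Tnfsf11* (0.93) were above 0 without wildtype replicate 5. The counts that follow leave out mutant libraries. Without mutant replicate 1, 9 of 10 members were lower, 6 of them at an unadjusted edgeR p under 0.05 (*Ctsk*, *Dcstamp*, *Atp6v0d2*, *Tnfrsf11a*, *Nfatc1* and *Tnfrsf11b*), against 2.49% of all genes. Without replicate 2, 9 of 10 were lower and *Tnfrsf11b* alone had an unadjusted edgeR p under 0.05, against 2.48% of all genes. Without replicate 3, 6 of 10 were lower and again *Tnfrsf11b* alone had such a p, against 8.69% of all genes. With replicate 3 alone against the 3 wildtype libraries, 10 of 10 were lower and 8 had an unadjusted edgeR p under 0.05, against 2.21% of all genes, where the single mutant library was assumed to vary like wildtype. The 2 that did not were *Ocstamp* and *Tnfsf11*. The members' median log2 fold change was −0.41, −0.17 and −0.03 without mutant replicates 1, 2 and 3 in turn, and −0.62 with mutant replicate 3 alone. The medians over all genes in the same fits were −0.0026, −0.003, −0.0023 and −0.0054. No member passed an adjusted p of 0.05 in any of these fits (smallest edgeR adjusted p 0.938, 0.963, 0.220 and 0.511 in that order).

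Across the 6 libraries the 8 members other than *Tnfsf11* and *Tnfrsf11b* had positive correlations with each other. Pearson's r of log2 CPM over their 28 pairs ran from 0.33 to 0.94 with a median of 0.79, and the highest was that of *Acp5* with *Ctsk*. *Mmp9* had the lower values, 0.33 to 0.72 with the other 7, and those 7, set apart after these values were seen, had 0.59 to 0.94 over 21 pairs. The highest r of *Mmp9* was with *Tnfsf11* (0.92). Osteoprotegerin had r = 0.14 with *Acp5*, and 0.73 with *Nfatc1*, 0.72 with *Ocstamp* and 0.67 with *Tnfrsf11a*. RANK ligand had r = 0.02 with its receptor. These values rest on 6 libraries that share depth and both genotypes, and describe these libraries only.

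**Figure D4:**
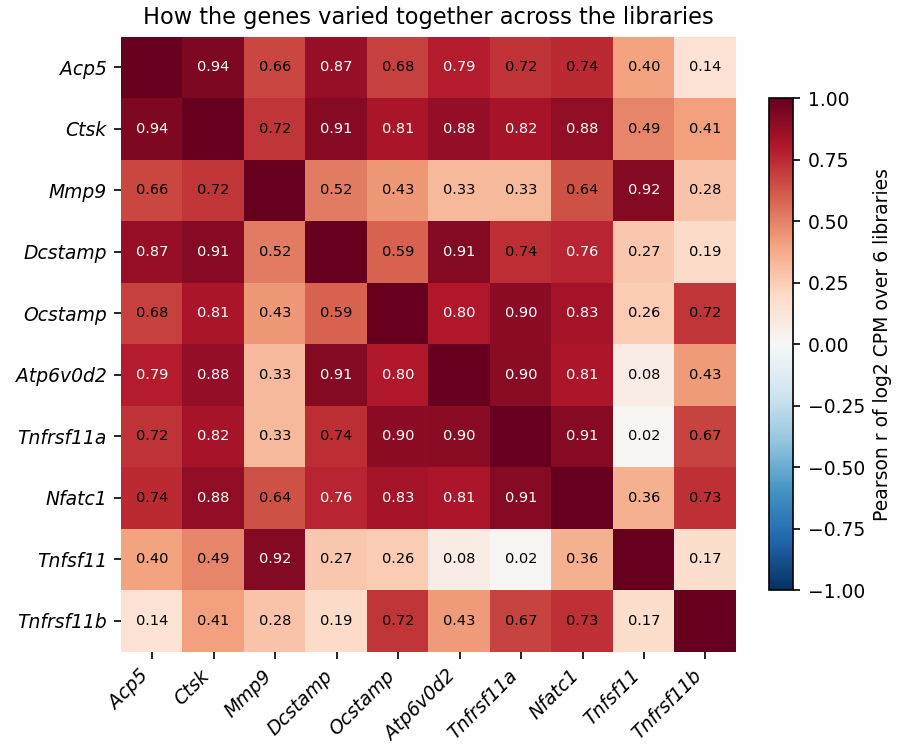
Pearson's r of log2 CPM between each pair of members over the 6 libraries, 3 of each genotype. The 8 genes other than Tnfsf11 and Tnfrsf11b run from 0.33 to 0.94, with the lowest values those of Mmp9, which pairs with Tnfsf11 at 0.92.

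Among 11949 genes with a mean log2 CPM of at least 3, the patterns most like *Ctsk* were those of *Mst1r* (r = 0.98), *Alg9* (0.97) and *Hgs* (0.97), and 11 genes exceeded 0.95. Those most like *Tnfrsf11b* were *Uso1* (r = 1.00), *Cox15* (0.99) and *Sema6a* (0.98), with 26 genes over 0.95. How often other genes reach values of this height with 6 libraries was not tested.

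At the level of transcripts, 24 were listed for the 10 members, 20 were tested and 2 were at 0 in all libraries. None passed an adjusted p of 0.05 in edgeR or DESeq2, as for all 38347 transcripts in edgeR (0.0%). At an unadjusted edgeR p under 0.05, 2 were lower, against 2.19% of transcripts, and they were the main coding transcripts of *Tnfrsf11a* (log2 fold change −0.52) and *Tnfrsf11b* (−0.33). None was higher.

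The *Acp5* transcripts have several annotated starts. The windows shown above were placed on RefSeq starts and do not hold every transcript start. Middle starts at bases 22131815 and 22131653 and a distal start at base 22135691 lie outside them. The proximal start (base 22130598 of chr9) carried 81.27% to 92.39% of *Acp5* FPKM, at 321.9, 229.0 and 257.4 FPKM in wildtype and 305.0, 224.6 and 186.4 in mutant libraries. Transcripts from the middle starts, 1055 to 1233 bases upstream, carried 5.58% to 8.15%. Those from the distal starts, 5093 to 5113 bases upstream, were at 12.15, 11.17 and 5.43 FPKM in wildtype and 21.2, 31.44 and 9.58 in mutant libraries. The distal level was highest in mutant replicates 1 and 2, the libraries that stood apart on the first principal component, and mutant replicate 3 lay among the wildtype libraries. The larger distal transcript had a log2 fold change of 1.14 (SE 0.487, edgeR unadjusted p = 0.0547, adjusted p = 0.999). How reads are split between transcripts that share exons is an estimate.

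**Figure D5:**
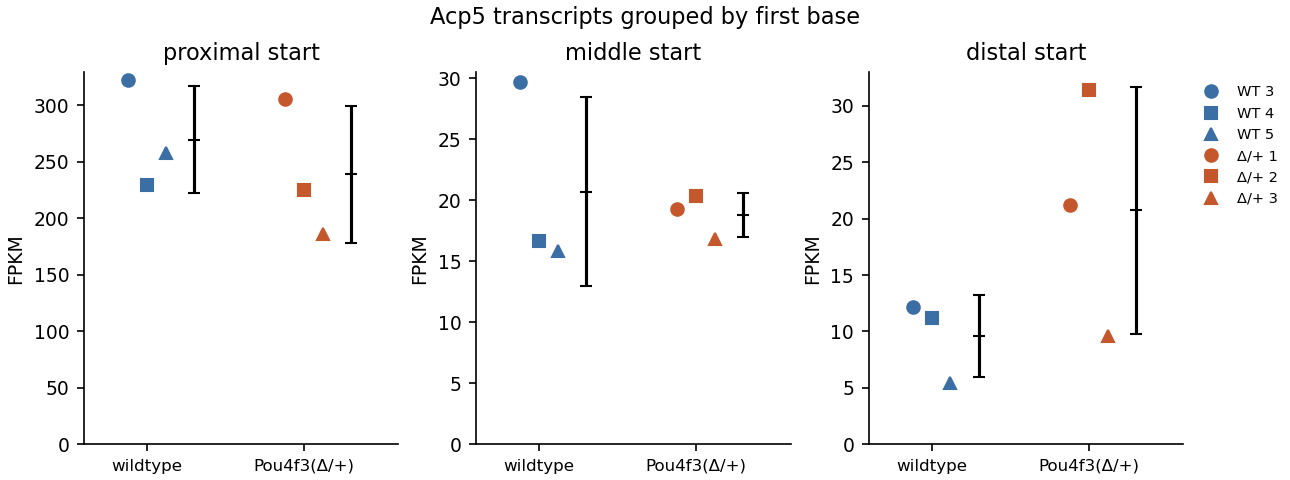
FPKM of Acp5 transcripts grouped by start (proximal, middle and distal) in each library, wildtype in blue and Pou4f3(Δ/+) in orange, with mean ± SD as black bars and an axis of its own for each start. The proximal start lies between 186.4 and 321.9, the distal starts between 5.43 and 31.44 with mutant replicates 1 and 2 on top.

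Other genes of resorption lay on both sides of 0. Of 16 genes for acid secretion, attachment and resorption, 11 were lower and 5 higher, none at an unadjusted edgeR p under 0.05, with a median log2 fold change of −0.07. Their summed level was 1087 to 1288 FPKM in wildtype and 1183 to 1512 in mutant libraries, with carbonic anhydrase II (*Car2*, which erythroid cells also make) the highest, at a log2 fold change of 0.34 (edgeR adjusted p = 0.661). The smallest p was that of the integrin subunit *Itgav* (−0.19, SE 0.087, unadjusted edgeR p of 0.0530 and adjusted p of 0.643). With mutant replicate 3 alone, 15 of 16 were lower, 4 of them at an unadjusted edgeR p under 0.05.

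Of 23 genes of osteoclast precursors and RANK signalling, 15 were lower and 8 higher, with a median of −0.03 and sums of 794.4 to 927.1 and 790.1 to 904.6 FPKM. *Mitf*, a transcription factor that acts with PU.1 on osteoclast genes, was lower at an unadjusted edgeR p of 0.0145 (log2 fold change −0.26, SE 0.087), at 14.37, 14.96 and 15.66 FPKM in wildtype and 13.16, 10.57 and 12.8 in mutant libraries, which did not overlap. *Irf8*, which restrains osteoclast formation, was higher (0.29, SE 0.12) at an unadjusted edgeR p of 0.0420, at 30.45, 27.82 and 28.75 against 29.51, 41.2 and 34.99. Whole tissue does not tell which cells either gene was read in. Neither passed the adjusted threshold (edgeR adjusted p = 0.643 for each), and *Irf8* kept an unadjusted p under 0.05 in 6 of 14 alternative fits, *Mitf* in 13. With mutant replicate 3 alone, 20 of 23 were lower, 5 of them at that p, and neither gene was among them.

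Markers of the other cells that make or meet these signals are given by their counts and summed levels, and their part in the members' values was not tested. With all libraries, 4.14% of all genes tested were lower and 3.5% higher at an unadjusted edgeR p under 0.05. Of 13 osteoblast and osteocyte genes tested, 9 were lower, 6 of them at an unadjusted edgeR p under 0.05 (median −0.21), and with mutant replicate 3 alone 3 of the 13 were lower and 1 was higher at that p. The sums were 3524 to 4086 FPKM in wildtype and 3353 to 5061 in mutant libraries, with *Spp1* the highest, and *Pdpn* was listed at 0 in all libraries. Among the 6, chosen for naming after their values were seen, were the osteoblast transcription factor *Sp7* (−0.63), alkaline phosphatase *Alpl* (−1.07) and collagen *Col1a1* (−0.75), and none of them passed the adjusted threshold. With mutant replicate 3 alone *Sp7* and *Alpl* kept an unadjusted edgeR p under 0.05 and *Col1a1* did not. The 4 genes of the list that were higher were *Spp1* (0.32), *Bglap* (0.38), *Bglap2* (0.26) and *Sost* (0.04), also named after their values were seen, none at an unadjusted edgeR p under 0.05 with all libraries.

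Lymphoid markers were higher in the mutant group, mostly through the libraries that stood apart. All 9 B cell genes and 4 of 8 T cell genes were higher at an unadjusted edgeR p under 0.05, with medians of 0.88 and 1.33, and none was higher at that p with mutant replicate 3 alone. In that fit 7 of 9 B cell genes were higher, while 5 of 8 T cell genes were lower, 1 of them at that p (median −0.19). The B cell sum was 122.2 to 152.3 FPKM in wildtype and 279, 320 and 159.5 in mutant replicates 1, 2 and 3, and the T cell sum 13.52 to 15.98 and 34.4, 43.49 and 12.59. Macrophage genes summed to 398.3 to 440.8 FPKM in wildtype and 353.7 to 507.8 in mutant libraries, with 7 of 10 higher (2 at an unadjusted edgeR p under 0.05, 1 lower), and with mutant replicate 3 alone 5 of 10 were lower and 1 was higher at that p. Erythroid genes summed to 11590 to 13480 and 12510 to 17850, with 9 of 9 higher (2 at an unadjusted edgeR p under 0.05), while with mutant replicate 3 alone 3 were higher and 6 lower, none at that p. Of 9 spiral ligament fibrocyte genes, cells of the lateral wall, 8 were lower and none had an unadjusted edgeR p under 0.05, with sums of 3646 to 4570 and 3344 to 3918 FPKM, and with mutant replicate 3 alone 8 of the 9 were higher, 1 of them at that p. No gene of these lists passed an adjusted p of 0.05 in edgeR.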

How the data were processed

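Total RNA of cochleae was made into libraries after poly(A) selection or rRNA removal (the labels name both) and sequenced on an Illumina HiSeq. For each of 6 samples the authors deposited estimated counts and FPKM for 128603 transcripts with gene symbols. The aligner and counter are not given in the sources used here, and the submitters' processing notes name mm8 and DESeq2. Positions come from GENCODE M21 (GRCm38), in which 99.51% of the transcript IDs were found.

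Estimated counts and FPKM, both as deposited, were summed over the transcripts of each symbol, and counts were rounded to whole numbers. Genes were kept by filterByExpr (minimum count 10, minimum total 15), scaled by TMM and compared between genotypes by edgeR's quasi-likelihood test (edgeR 4.0.16, R 4.3.3) over all 17136 genes, with Benjamini-Hochberg adjustment and a threshold of 0.05. Transcripts were tested the same way. FPKM values are used for levels between genes and CPM (prior count 2 for log2) for likeness. Fits were tested on simulated data. Alternatives were DESeq2 1.42.0, other size factors, no filter, limma 3.58.1 on log2(FPKM + 0.5), 0.1 or 1, and leaving out libraries.

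The members, gene lists, and the rule for named genes (the members, pathway genes at an unadjusted p under 0.05 or smallest in their list, the highest marker of each list, and the 3 genes most like *Ctsk* and *Tnfrsf11b*) were chosen with earlier results of these data known. Each library is described by its total count, and *Dcstamp*, *Ocstamp* and *Tnfsf11* rest on the fewest counts. Reads shared between transcripts or overlapping genes may be split uncertainly.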

Additional observations from a re-analysis of the deposited data

How the results depend on the processing

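No member passed an adjusted p of 0.05 under any alternative. Of 182 alternative log2 fold changes, for the members and the 3 named pathway genes, 166 kept their direction and side of the threshold and 16 changed sign. With both *Pou4f3(Δ/+)* replicates 1 and 2 left out, *Mmp9* was at −0.41, *Dcstamp* at −0.92 and *Tnfsf11* at −0.91, and the ligand-to-decoy difference was −0.26. *Dcstamp* was also at −0.13, −0.17 and −0.10 by limma with pseudocounts of 0.5, 0.1 and 1. Leaving out each library in turn gave −0.292 to 0.0662 for *Acp5*, −0.0853 to 0.215 for *Mmp9*, −0.73 to 0.33 for *Dcstamp* and −0.15 to 0.93 for *Tnfsf11*. *Tnfrsf11b* kept its sign and an unadjusted p under 0.05 in 14 of 14 alternatives (adjusted p 0.22 to 1.00, across edgeR, DESeq2 and limma), and *Tnfrsf11a* its sign in 14 and that p in 11 (adjusted p 0.30 to 0.96).

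Over all genes, 0 passed an adjusted p of 0.05 in edgeR, with 709 lower and 600 higher at an unadjusted p under 0.05, while DESeq2 called 64, the fit without a filter 9, limma with a pseudocount of 0.1 1, the fit without mutant replicates 1 and 2 6, and fits that left out a library 0 to 193, with 193 when mutant replicate 3 and 3 when wildtype replicate 4 was left out. Over all transcripts the counts were 0 in edgeR, 130 in DESeq2, 1 without a filter and 0 to 3 without a library (3 without wildtype replicate 3, 1 without mutant replicate 3). The causes were not tested. Counts of the gene lists with mutant replicate 3 alone were added after seeing the data. No paired analysis was possible because the genotypes share only replicate number 3. *Tnfsf11* (18 to 84 counts), *Dcstamp* (44 to 180) and *Ocstamp* (52 to 93) rest on the fewest counts.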
